A study of Rattus norvegicus with 17 samples.

Results

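The fatty acid elongases of the Elovl family were examined in the meibomian glands (MG) of rats, the sebaceous glands of the eyelid that secrete the oily layer of the tear film. The family was taken by gene symbol, Elovl1 to Elovl7. Of these 7 genes, 6 were among the 17251 genes of the expression table, all 6 passed the filter on low values, and Elovl6 was not analysed here. The study used female Sprague-Dawley rats aged 10 to 12 weeks and crossed a transgene with an irradiation. P1.hMR rats carry the human mineralocorticoid receptor (hMR) under the proximal promoter P1 of the human NR3C2 gene, which drives it in the tissues that normally express the receptor and not in the MG alone, and their controls were wild-type (WT) littermates. Ultraviolet B (UVB) was given to the shaved upper eyelids on 5 successive days. There were 4 WT and 5 P1.hMR rats without UVB (Control WT and Control P1.hMR) and 3 WT and 5 P1.hMR rats with it (UVB WT and UVB P1.hMR), 1 RNA-sequencing library per rat, and the labels named no batch.

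Elovl enzymes catalyse the first and rate-limiting step of the elongation cycle in the endoplasmic reticulum, the condensation of an acyl-CoA with malonyl-CoA, and so decide which chains are lengthened. Elovl1, Elovl3, Elovl4 and Elovl7 act mainly on saturated and monounsaturated chains and make long and very-long-chain acyl groups, whereas Elovl2 and Elovl5 act on polyunsaturated chains. Meibum is unusually rich in wax esters, cholesteryl esters and omega-hydroxylated lipids with very long chains, and the gland depends on the first group of enzymes to make them.

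Elovl3 and Elovl5, the members that passed both thresholds of the test after UVB in each genotype, are shown with the 300 bases around their RefSeq starts in assembly GRCr8, from 250 bases before the start to 50 after it, because the promoters of genes that move together can be compared by their letters. Capitals mark the E-box CACGTG and the inverted CCAAT box ATTGG. The Elovl3 window is chr1:254938481-254938780 on the plus strand and the Elovl5 window is chr8:87670914-87671213 on the plus strand.
Elovl3: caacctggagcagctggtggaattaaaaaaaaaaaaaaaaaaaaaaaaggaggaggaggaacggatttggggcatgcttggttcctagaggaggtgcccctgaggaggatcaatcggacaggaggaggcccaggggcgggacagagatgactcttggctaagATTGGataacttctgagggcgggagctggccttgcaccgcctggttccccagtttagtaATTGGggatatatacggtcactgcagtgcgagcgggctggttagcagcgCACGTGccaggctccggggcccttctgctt
Elovl5: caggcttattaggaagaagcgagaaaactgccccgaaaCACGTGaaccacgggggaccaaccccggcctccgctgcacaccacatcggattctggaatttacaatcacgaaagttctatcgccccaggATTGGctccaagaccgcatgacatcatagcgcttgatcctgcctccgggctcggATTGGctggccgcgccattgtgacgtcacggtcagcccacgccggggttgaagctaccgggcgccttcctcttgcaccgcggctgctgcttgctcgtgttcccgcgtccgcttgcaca

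Both windows held an E-box and 2 inverted CCAAT boxes on the plus strand. In Elovl3 the E-box began 20 bases after the start and the inverted CCAAT boxes at -88 and -29. In Elovl5 the E-box began at -212 and the inverted CCAAT boxes at -122 and -68. Among the other measured members only Elovl4 held either motif, an inverted CCAAT box at -242. Elovl7, which passed both thresholds after UVB in P1.hMR only, held neither. Of 33469 rat promoter windows of this length, 6.42% held an E-box and 37.5% an inverted CCAAT box on either strand, so neither motif was rare. The sterol regulatory element TCACNCCAC (1.12% of windows), the full hormone response element shared by the glucocorticoid and mineralocorticoid receptors (AGAACA and TGTTCT with any 3 bases between them, 0.0149%), its relaxed form (GNACA and TGTNC with any 3 bases between them, 0.439%) and the PPAR element (AGGTCA, any 1 base, AGGTCA, 0.0538%) were searched on both strands, every full hormone element also being a relaxed one, and matched none of the 7 windows of the 6 measured members (Elovl2 had 2). These are letter matches in short windows and carry no measurement of binding.

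NR3C2, the transgene, was listed at 0 in every WT rat and lay between 5.31 and 9.31 TPM (a transcript level scaled for transcript length and for the library's total) in the P1.hMR rats, so each library matched its labelled genotype. UVB WT rat 3 stood apart from the other UVB WT rats at some genes. Elongase results whose call changed without it are given both ways, and those of other genes in part. The deposited values are TPM without counts, so the depth of each library is unknown. The values of the listed genes summed to 804378 to 840817 TPM per rat, and 12372 to 12737 genes reached 1 TPM. Markers of the gland were present in all rats. The summed level of 7 meibocyte markers was 15645 to 20072 TPM in the controls and 12072 to 14207 TPM after UVB, a sum in which Awat2, the wax ester synthase, had the largest share. Over the 7 markers the median log2 fold change averaged over genotypes was -0.07, with 1 called lower, Awat2 at -0.59 (limma adjusted p = 4.87e-07), 1 called higher, Mc5r, the melanocortin 5 receptor, at 0.59 (limma adjusted p = 0.0171), and 5 not called. Mc5r was not called without Control WT rat 2 (0.45) or UVB WT rat 2 (0.46). Among the 5 not called, Cidea was at 2113 to 2613 TPM in the controls and 1552 to 1801 TPM after UVB. Plin2 was at 1442.5 to 1666 TPM and 1068 to 1279 TPM. Both did not overlap in either genotype, as 26.6% of all genes in WT and 27.2% in P1.hMR, whereas Far2, Soat1 and Pparg overlapped in both. In WT Cidea (-0.49) was called lower without Control WT rat 3 (-0.51) or 4 (-0.52) or UVB WT rat 2 (-0.53). Markers of other cells also moved. All 8 measured hair keratins were called lower after UVB averaged over genotypes, where 9.48% of all genes were called in either direction. Their summed level was 758 to 1491 TPM in the controls and 350 to 968 TPM after UVB. Of 5 epidermis markers 2 were called lower, but the summed level of the 5 was 1976 to 2894 TPM in the controls and 2011 to 3809 TPM after UVB. Of 8 skeletal muscle markers 1 was called lower. Of 6 macrophage markers 2, Cd163 and Mrc1, were called higher, but the median of the list was -0.06. Of 3 tested adipocyte markers 1, Retn, was called higher. Adipoq, at -0.67, was not called, but was called lower without Control WT rat 3 or Control P1.hMR rat 4. Without UVB WT rat 3 the epidermis count was 3 of 5 and the muscle count 0 of 8. None of 3 basal and duct keratins and neither of 2 conjunctiva markers was called. The brown fat marker Ucp1 did not exceed 0.37 TPM in any rat. Adrb3 did not exceed 0.17 TPM in any rat and was listed at 0 in every UVB P1.hMR rat. The part of these shifts in the elongase results was not tested. In these bulk samples fewer cells of a type and less RNA per cell cannot be told apart.

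The 6 measured elongases spanned more than 3 orders of magnitude in TPM, and the very-long-chain enzymes made up nearly all of their summed level. Elovl6 was not analysed here, so its share of the family's RNA is unknown. Elovl1, which makes saturated and monounsaturated very long chains in most tissues, was at 6364 ± 725 TPM (SD, n = 4) in Control WT and ranked between the second and the sixth gene of the table in every rat. Elovl4, which extends chains to the ultra-long range found in meibum, followed at 2446 ± 258 TPM and ranks 17 to 46. Elovl3, an enzyme characteristic of sebaceous and brown fat cells, was at 935 ± 158 TPM and ranks 52 to 152. Elovl5 was at 236 ± 33.2 TPM (ranks 276 to 632), Elovl7 at 20.6 ± 3.99 TPM (ranks 3066 to 6474) and Elovl2 at 5.04 ± 1.05 TPM (ranks 9026 to 11310). This order held in all 17 rats, and neighbouring members did not overlap.

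**Figure D1:**
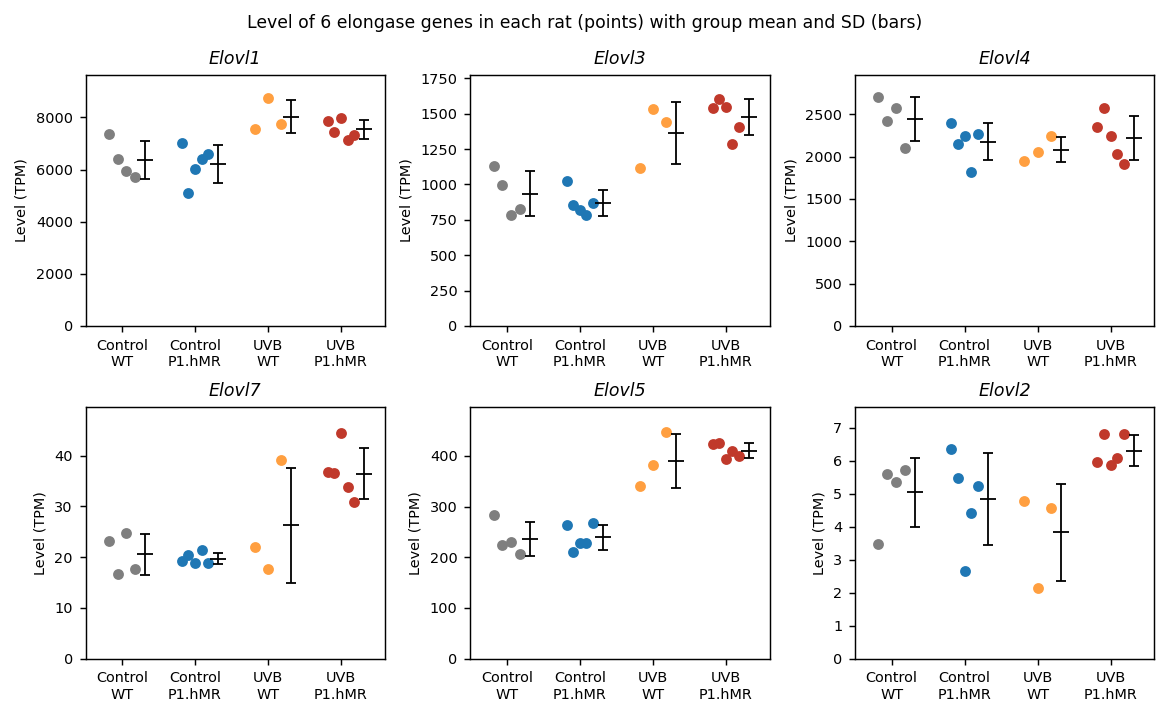
Level of each measured elongase in TPM (vertical axes, linear and starting at 0) in every rat (points), by group, with the group mean and SD (bars). Elovl3 and Elovl5 sit higher in the UVB groups, Elovl4 does not, and 1 UVB WT rat at 39.15 TPM of Elovl7 stands with the UVB P1.hMR rats.

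The first question was how UVB changed the elongases in WT and in P1.hMR glands. A gene was called where limma, fitted on log2(TPM + 1) across 13105 genes, gave an adjusted p below 0.05 and a log2 fold change of at least 0.5 in size. In WT rats 2 of the 6 elongases were called, Elovl3 and Elovl5, both higher, against 7.91% of all genes tested. In P1.hMR rats 3 of 6 were called, Elovl3, Elovl5 and Elovl7, all higher, against 10.8% of all genes. Averaged over the genotypes, the same 3 were called, against 9.48% of all genes. The median log2 fold change over all genes was 0.01 in WT and -0.02 in P1.hMR.

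Elovl5, the elongase of polyunsaturated chains that is also a target of lipogenic regulation, rose in both genotypes. In WT its level was 283, 225, 230 and 206 TPM without UVB and 341, 383 and 447 TPM with it. In P1.hMR it was 263, 211, 228, 227 and 268 TPM in the controls and 423, 426, 393, 409 and 399 TPM after UVB. Every irradiated rat lay above every control, and the 5 UVB P1.hMR rats were close together (410 ± 14.3 TPM, n = 5). The log2 fold change was 0.72 (SE 0.105, limma adjusted p = 0.000307) in WT, a 1.65-fold rise, and 0.78 (SE 0.0869, adjusted p = 7.40e-06) in P1.hMR, a 1.72-fold rise. The two-sided exact permutation test gave p = 0.00794 in P1.hMR and p = 0.0571 in WT, each the smallest that these group sizes allow. The call held in all 26 alternative fits of each comparison.

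Elovl3 rose by a similar amount. It was at 1129, 994, 786 and 828.6 TPM in Control WT and at 1115, 1532 and 1442 TPM in UVB WT, so the lowest irradiated WT rat lay just under the highest control. In P1.hMR it was at 1024, 854, 816, 783 and 872 TPM in the controls and at 1540, 1604, 1545, 1289 and 1409 TPM after UVB, with no overlap. The log2 fold change in P1.hMR was 0.77 (SE 0.107, limma adjusted p = 5.48e-05), a 1.70-fold rise, and the exact permutation p was 0.00794. In WT it was 0.55 (SE 0.130, adjusted p = 0.00770), a 1.46-fold rise, with an exact permutation p of 0.114. The WT call was close to the fold threshold and was lost without Control WT rat 3 (0.47), Control WT rat 4 (0.49), UVB WT rat 2 (0.46) or UVB WT rat 3 (0.50, just under the threshold), though the limma adjusted p stayed below 0.05 in each of these fits. With only the 2 WT groups in the fit, the adjusted p was 0.0551.

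Elovl1 was higher after UVB by a smaller amount that did not meet the fold threshold. Its levels were 7363, 6418, 5947 and 5730 TPM in Control WT and 7559, 8747 and 7759 TPM in UVB WT. In P1.hMR the controls lay at 7002, 5084, 6035, 6387 and 6583 TPM and the irradiated rats at 7876, 7450, 7965, 7127 and 7320 TPM. The groups did not overlap in either genotype. The log2 difference was 0.34 (SE 0.104, limma adjusted p = 0.0293) in WT and 0.29 (SE 0.0859, adjusted p = 0.0146) in P1.hMR. Averaged over the genotypes it was 0.31 (adjusted p = 0.00129), and the interval in P1.hMR, 0.10 to 0.47, lay wholly under the threshold of 0.5.

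Elovl4 did not share in the rise. Its values were 2701, 2413, 2568 and 2102 TPM in Control WT against 1946, 2056 and 2245 TPM in UVB WT. In P1.hMR they were 2399, 2151, 2236, 1814 and 2266 TPM against 2344, 2568, 2238, 2024 and 1916 TPM. The groups overlapped in both genotypes. The log2 difference was -0.23 (95% interval -0.46 to 0.00, limma adjusted p = 0.147) in WT and 0.03 (-0.16 to 0.22, adjusted p = 0.833) in P1.hMR, so a rise of the size seen in Elovl3 lay outside both intervals.

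Elovl7, the least abundant of the very-long-chain group, met the thresholds after UVB in P1.hMR but missed them in WT. In P1.hMR it was at 19.2, 20.5, 18.9, 21.4 and 18.8 TPM in the controls and at 36.7, 36.5, 44.4, 33.9 and 30.8 TPM after UVB, with a clear gap between the groups. The log2 fold change was 0.85 (SE 0.161, limma adjusted p = 0.000667), a 1.80-fold rise, and the exact permutation p was 0.00794. In WT it was at 23.2, 16.8, 24.8 and 17.6 TPM in the controls and at 22.0, 17.75 and 39.15 TPM after UVB. UVB WT rats 1 and 2 lay within the range of the controls and UVB WT rat 3 lay among the UVB P1.hMR rats. The WT difference was 0.28 (SE 0.194, adjusted p = 0.322), and without UVB WT rat 3 it was -0.04. Without that rat the rise averaged over the genotypes went from 0.56 (adjusted p = 0.00170) to 0.40 (adjusted p = 0.00254) and was no longer called.

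Elovl2, which lengthens the longest polyunsaturated chains, was the lowest member. It was at 3.49, 5.60, 5.35 and 5.73 TPM in Control WT and at 4.77, 2.14 and 4.58 TPM in UVB WT. In P1.hMR it was at 6.35, 5.49, 2.66, 4.43 and 5.23 TPM in the controls and at 5.96, 6.80, 5.86, 6.07 and 6.82 TPM after UVB. The differences of -0.36 in WT (limma adjusted p = 0.275) and 0.36 in P1.hMR (adjusted p = 0.137) were not called, and the groups overlapped in both. Both rested on single low rats, being -0.07 in WT without UVB WT rat 2 and 0.20 in P1.hMR without Control P1.hMR rat 3. Counted over the family, irradiated and control rats did not overlap for 2 of 6 members in WT, where 26.6% of all genes did the same, and for 4 of 6 in P1.hMR, where 27.2% did.

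**Figure D2:**
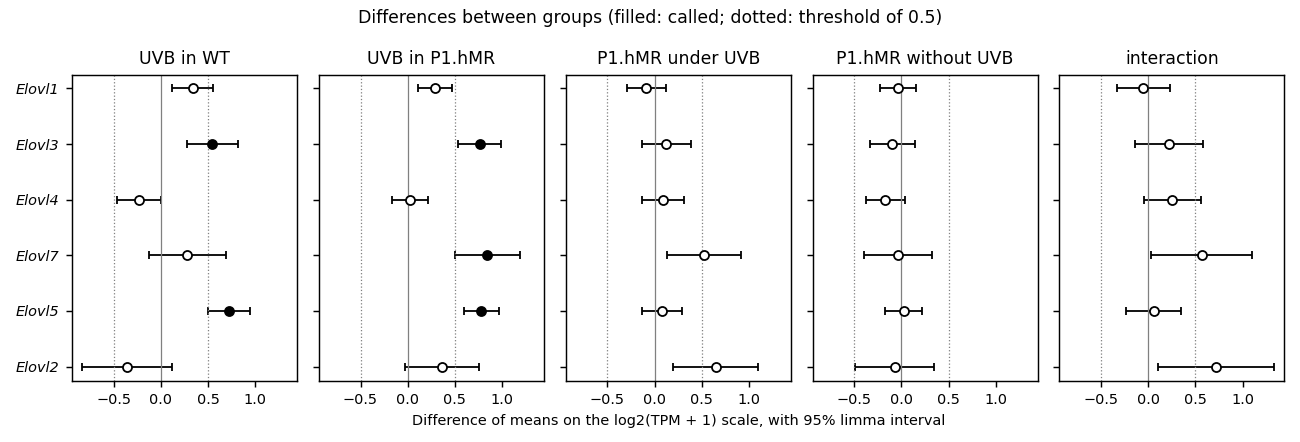
Difference between group means on the log2(TPM + 1) scale with its 95% limma interval (horizontal axis) for each measured elongase (rows) in 5 comparisons (panels), filled where called and with dotted lines at the threshold of 0.5. The 5 filled points are Elovl3 and Elovl5 in both UVB panels and Elovl7 in UVB in P1.hMR, and no interval in the genotype panels belongs to a call.

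The second question was whether the human receptor changed the elongases, either alone or under UVB. Without UVB none of the 6 elongases was called between Control P1.hMR and Control WT. The background was 0.00763% of all genes, with 528 genes at an unadjusted limma p below 0.05. The log2 differences ran from -0.17 in Elovl4 (limma adjusted p = 0.998) to 0.02 in Elovl5. Under UVB none was called either, against 0.0229% of all genes, with 1348 genes at an unadjusted p below 0.05. For Elovl1, Elovl3, Elovl4 and Elovl5 the differences between UVB P1.hMR and UVB WT were -0.09, 0.12, 0.09 and 0.08, and their intervals reached at most 0.39 upward, for Elovl3, and -0.30 downward, for Elovl1.

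Elovl7 and Elovl2 had the largest differences between the irradiated groups. Elovl7 was higher in UVB P1.hMR by 0.52 (95% interval 0.13 to 0.92), which is 36.5 ± 5.03 TPM (n = 5) against 26.3 ± 11.3 TPM (n = 3). Its unadjusted limma p was 0.0120 and its adjusted p 0.345, and the groups overlapped because of UVB WT rat 3. Without that rat the difference was 0.84 (limma adjusted p = 0.0139), a call, and the number of genes called over the whole table went from 3 to 51. The UVB responses of the genotypes differed by 0.56 (unadjusted limma p = 0.0394, adjusted p = 0.711, exact permutation p over genotypes within treatment 0.0914), and by 0.88 (adjusted p = 0.115) without the rat. So whether Elovl7 differed between the genotypes under UVB rested on 1 of 3 rats.

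Elovl2 was higher in all 5 UVB P1.hMR rats than in all 3 UVB WT rats, at 6.30 ± 0.470 TPM against 3.83 ± 1.47 TPM. Groups did not overlap for 5.87% of all genes in this comparison, and Elovl2 was the only member among them. The difference was 0.65 (SE 0.215, unadjusted limma p = 0.00823, adjusted p = 0.325), and the exact permutation p of 0.0357 was the smallest that 5 against 3 rats allow. Between the UVB responses the difference was 0.72 (unadjusted limma p = 0.0256, adjusted p = 0.711, exact permutation p 0.0482). In this test none of the 6 members and 0% of all genes were called by limma, with 907 genes at an unadjusted p below 0.05. With UVB WT rat 3 left out, 8 genes of the whole table were called in it, and no member. Without UVB WT rat 2, at 2.14 TPM, the difference under UVB was 0.36 (limma adjusted p = 0.728) and that between the responses 0.43 (limma adjusted p = 0.800).

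UVB WT rat 3 stood with the P1.hMR rats at several genes that use or shape long acyl chains, which were picked after their values were seen. At Cers3, the ceramide synthase of very long and ultra-long chains, it was at 24.6 TPM against 12.4 and 13.4 TPM in the other UVB WT rats and 22.2 to 24.3 TPM in UVB P1.hMR. At Fads2, a desaturase of polyunsaturated and sebaceous fatty acids, it was at 20.0 TPM against 8.77 and 11.8 TPM and 15.2 to 19.8 TPM. At Cyp4f39, the omega-hydroxylase of ultra-long chains, it was at 700 TPM against 1027 and 1021 TPM and 695 to 769 TPM. At Elovl1 and Elovl3 it lay between the other UVB WT rats, and its 447 TPM of Elovl5 was the highest of any rat. NR3C2 was listed at 0 in it, and its summed hair keratins were 968 TPM against 427 and 350 TPM in the other UVB WT rats, its epidermis markers 3809 TPM against 2899 and 2442 TPM, and its skeletal muscle markers 1857 TPM against 3450 and 2945 TPM. The part of these in its Elovl7 level was not tested.

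**Figure D3:**
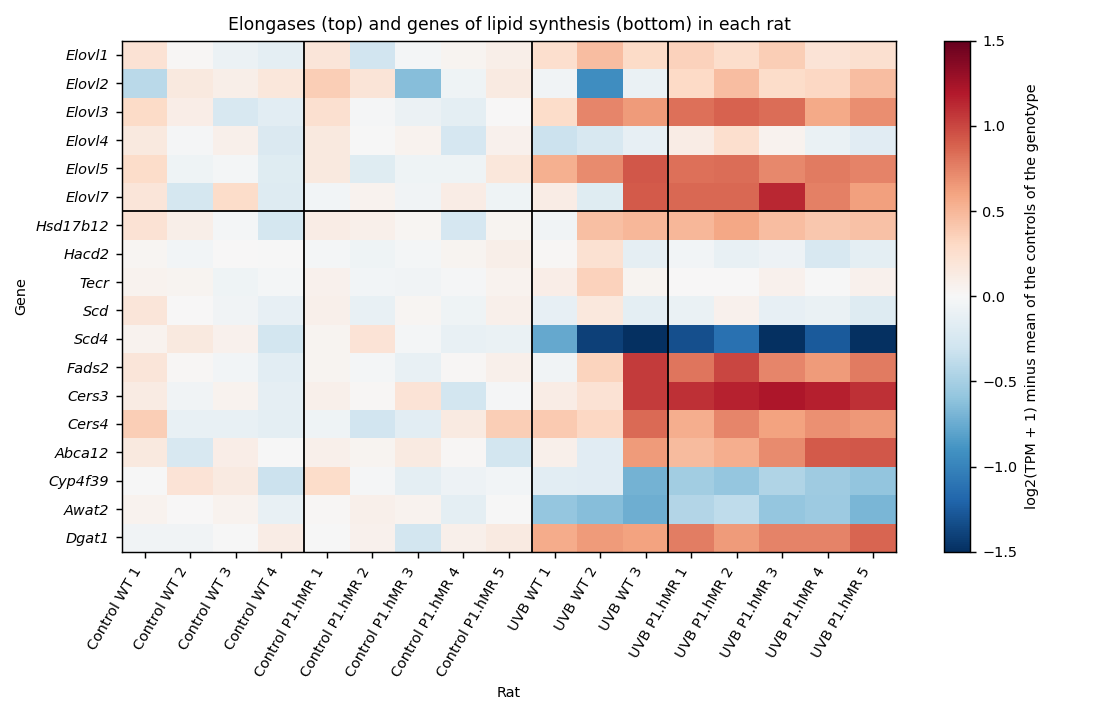
Difference of each rat (columns, by group) from the mean of the controls of its genotype on the log2(TPM + 1) scale (colour, limited to 1.5 in each direction) for the 6 measured elongases (above the line) and 12 genes of lipid synthesis (below it). Elovl3 and Elovl5 are red in every UVB rat, Elovl7 in UVB WT rat 3 and the UVB P1.hMR rats, and Scd4 and Awat2 are blue in every UVB rat.

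The unequal changes altered the proportions within the family, which are given as descriptions because they are built from the members. The summed level of the 6 measured elongases, without Elovl6, was 8326 to 11503 TPM in the controls and 10889 to 12738 TPM after UVB. The 4 very-long-chain genes held 97.3% to 97.7% of it in the controls and 96.2% to 97.0% after UVB, without overlap. The ratio of Elovl3 to Elovl4 was 0.306 to 0.432 in the 9 control rats and 0.573 to 0.745 in the 8 irradiated rats, without overlap. The ratio of Elovl1 to Elovl4 was 2.32 to 3.52 and 2.90 to 4.25, with overlap. Elovl4 held 19.6% to 26.9% of the summed level of the 6 in the controls and 16.1% to 21.2% after UVB. Elovl5 rose from 2.23% to 2.67% of it in the controls to 3.00% to 3.76%. The calls did not divide the very-long-chain from the other elongases, but with only 2 others measured they could hardly do so. Of the 4 very-long-chain genes Elovl3 was called in both genotypes, Elovl7 in P1.hMR, and Elovl1 and Elovl4 in neither, and of the 2 others Elovl5 was called in both and Elovl2 in neither.

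**Figure D4:**
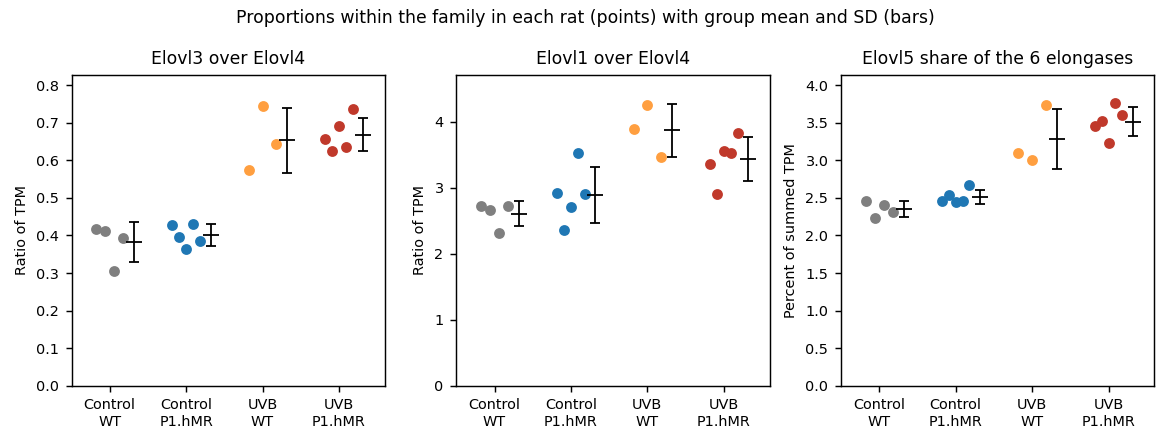
Ratio of Elovl3 to Elovl4, ratio of Elovl1 to Elovl4, and Elovl5 as a percent of the summed TPM of the 6 measured elongases (vertical axes, starting at 0) in every rat (points), by group, with mean and SD (bars). The Elovl3 to Elovl4 ratios of 0.573 to 0.745 after UVB lie above all control ratios of 0.306 to 0.432, while the Elovl1 to Elovl4 ratios overlap.

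The other enzymes of the elongation cycle were called in neither direction by UVB. Of the 6 tested, 0 were higher and 0 lower in WT, in P1.hMR and averaged, with a median log2 fold change of -0.03 averaged against -0.01 over all genes. Of all genes 7.91%, 10.8% and 9.48% were called in these comparisons, so 0 of 6 does not set these enzymes apart. Hsd17b12, the ketoacyl-CoA reductase that follows the elongases, came nearest at 0.39 averaged (limma adjusted p = 0.000960). In WT it was at 483 to 674 TPM without UVB and 563 to 825 TPM with it, with overlap. In P1.hMR it was at 502 to 644 TPM and 791 to 894 TPM, without overlap, as for 27.2% of all genes. The P1.hMR difference of 0.48 was under the fold threshold, but Hsd17b12 was called without Control P1.hMR rat 1 (0.504, limma adjusted p = 0.00251). Tecr, the last reductase of the cycle, was at 0.10 (adjusted p = 0.0641). The dehydratases Hacd1, Hacd2, Hacd3 and Hacd4 were at -0.01, -0.04, -0.29 and -0.28, of which Hacd3 (adjusted p = 0.000922) and Hacd4 (adjusted p = 0.0179) had an adjusted p under 0.05. Hacd2 was the most abundant dehydratase at 477 ± 10.1 TPM (n = 4) in Control WT.

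Of the enzymes that supply the elongases, 2 desaturases were called averaged over the genotypes, where 9.48% of all genes were called in either direction. None of the 7 genes of fatty acid synthesis was called, although their median averaged 0.25. Acly, which makes cytosolic acetyl-CoA, was at 0.37 (limma adjusted p = 1.26e-05) and Fasn, the fatty acid synthase, at 0.25 (adjusted p = 0.00399). Of 7 desaturases, averaged over the genotypes, Fads2 rose by 0.62 (limma adjusted p = 0.000308) and Scd4 fell by 1.32 (adjusted p = 2.28e-07), and 5 were not called. The averaged Fads2 call was lost without UVB WT rat 3, where the rise was 0.46 (limma adjusted p = 0.000130) and under the fold threshold. In P1.hMR Fads2 was at 8.56 to 9.93 TPM in the controls and 15.2 to 19.8 TPM after UVB. These did not overlap, as for 27.2% of all genes. In WT it was at 8.1 to 10.6 TPM and 8.77 to 20.0 TPM, with overlap, and the difference of 0.44 was not called. Scd, the most abundant gene of that list at 27692 ± 2517 TPM in Control WT, was at -0.06 (adjusted p = 0.442). Of 11 lipogenic regulators and of 7 genes of peroxisomal breakdown none was called, against the same 9.48% of all genes.

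Genes that use the elongated chains changed in both directions. Of 15 tested, averaged over the genotypes, 3 rose and 1 fell, against 9.48% of all genes called in either direction, with a median of -0.07. Cers3 rose by 0.80 (limma adjusted p = 1.77e-05), Dgat1, which makes triacylglycerol, by 0.68 (adjusted p = 1.97e-07) and Cers4, another ceramide synthase, by 0.58 (adjusted p = 0.000205), while Awat2 fell as given above. Without UVB WT rat 3 Cers4 was at 0.496 (limma adjusted p = 0.000788), just under the threshold, and 2 rose and 1 fell. In P1.hMR 4 rose and 3 fell, against 10.8% of all genes called in either direction. They were Abca12, a lipid transporter of keratinocytes, at 0.72 (limma adjusted p = 0.000690), Cyp4f39 at -0.53 (adjusted p = 0.00138) and Dgat2 at -0.52 (adjusted p = 0.000206) beside Cers3, Cers4, Dgat1 and Awat2. Of these, Cyp4f39 without Control P1.hMR rat 1 (-0.46), Dgat2 without UVB P1.hMR rat 1 (-0.48) and Awat2 without UVB P1.hMR rat 5 (-0.48) fell short of the threshold. In WT 2 rose, Dgat1 and Cers4, and 1 fell, Awat2, against 7.91% of all genes called in either direction. Cers4 at 0.51 was not called without Control WT rat 2 (0.48), 3 (0.48) or 4 (0.47) or UVB WT rat 3 (0.35). Between the genotypes none of the 15 was called, with UVB (0.0229% of all genes) or without it (0.00763%). Without UVB WT rat 3 the irradiated P1.hMR rats exceeded the irradiated WT rats in Cers3 by 0.80 (limma adjusted p = 0.00147), a call, and also in the desaturase Fads2, by 0.69 (limma adjusted p = 0.0112, a call). The UVB responses of the genotypes differed in Cers3 by 0.69, not called, and by 0.98 without that rat (limma adjusted p = 0.00403), a call.

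Within groups the elongases varied together in part. With the group means taken out, Pearson's r over 17 rats was 0.68 between Elovl1 and Elovl3, 0.68 between Elovl1 and Elovl5 and 0.67 between Elovl3 and Elovl5. Elovl4 was at 0.65 with Elovl5, 0.63 with Elovl3 and 0.37 with Elovl1. Elovl7 was at 0.42 with Elovl5 but at -0.03 with Elovl1, and Elovl2 with Elovl1 was at -0.35. The rats share a scaling to their own library, so these are descriptions. Among 9929 genes with a mean of at least 5 TPM, those most like each member within groups were Pank1 (0.91) and Acy1 (0.91) for Elovl1, Mfng (0.95) and Ubqln1 (0.95) for Elovl3, and Cript (0.88) and Cd164 (0.86) for Elovl4. They were Aacs (0.90) and Rad23b (0.89) for Elovl5, Fzd10 (0.86) for Elovl7, and Serhl2 (0.86) and Rfx2 (0.82) for Elovl2. Aacs, which activates acetoacetate for lipid synthesis, was at 0.99 with Elovl5 when the group means were left in, whereas Fzd10 was at -0.32 with Elovl7 on that measure.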

How the data were processed

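RNA was extracted from dissected MG and sequenced, 1 library per rat. The deposited table holds TPM per gene with decimal commas, made by the authors. The methods name FastQC, STAR and RSEM, and the submitters' processing notes list FastQC, Trimmomatic, DRAGEN and Picard, both with assembly rn7. Which of the 2 pipelines gave the TPM is not given in the sources used here. Counts were not used here, so no interval for counting error is given.

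Groups came from the sample labels. Values were taken as log2(TPM + 1), 13105 of 17251 genes reached 1 TPM in 3 or more rats and were kept, and limma 3.58.1 (R 4.3.3) was fitted with 1 mean per group, all 17 rats and a mean-variance trend. P-values were adjusted by the Benjamini-Hochberg method over all genes tested. Fold changes on this scale understate those of low genes. The fit was tested on simulated data. Single values were compared by a two-sided exact permutation test (scipy 1.17.1). Replicates are separate rats. Alternatives covered the pseudocount, filters, scalings, sample weights, the variance model, the samples in the fit, a stricter fold and leaving out each rat, which for the gene lists was chosen after seeing the data. The numbers of the rats were not taken as pairs, since same-numbered rats correlated between -0.19 and 0.24. Control WT rats 1, 3 and 4 did correlate best with the same-numbered Control P1.hMR rat (r of 0.19, 0.12 and 0.24), which no rat did in the other comparisons.

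The members and all 14 gene lists were chosen with earlier results of these data known. Named genes are the members, the elongation cycle, up to 4 called genes of each list with the largest averaged UVB change and the 2 genes most like each member, of which 1 is not reported here. Others were named after their values were seen. Acaa1b, Cers1, Flg, Krt33b, Krt6a, Mlxipl, Muc5ac, Myh1, Myh2, Scd1 and Scd3 were not analysed here. Promoter sequences are from RefSeq, assembly GRCr8, matched by symbol for all 6 measured members.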

Additional observations from a re-analysis of the deposited data

Results flagged for a closer look

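Elovl2 in Control WT rat 1, at 3.49 TPM, lay far under the other 3 Control WT rats, which were between 5.35 and 5.73 TPM. It was the single value set apart in this way among 18 groups of 4 or 5 rats checked, and chance sets apart about 1 in 20 such groups. UVB WT, with 3 rats, could not be checked.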

How the results depend on the processing

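Elovl5 after UVB in both genotypes, and Elovl3 and Elovl7 after UVB in P1.hMR, were called in all 26 alternative fits with log2 fold changes of 0.62 to 0.82, 0.72 to 0.82, 0.73 to 0.83 and 0.77 to 0.90. At a fold threshold of 1 on the log2 scale the count of called members was 0 in WT, in P1.hMR and averaged. In WT the count fell from 2 to 1 with only the 2 groups compared and with the replicate number as a block, where Elovl3 was at 0.49. Same-numbered rats were best matches only between the control groups, and there in part. Leaving out 1 rat at a time gave 1 to 2 called members in WT, 2 to 3 averaged, and 0 to 1 for P1.hMR under UVB, and the lower averaged and higher P1.hMR counts both came without UVB WT rat 3. The cause was not tested. For averaging and the difference between responses, a fit of only 2 groups was not run.

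The other changes of sign were in values not called by the reported fit, of which the farthest from 0 was Elovl7 after UVB in WT at 0.28. Elovl2 averaged was at -0.0078 with a pseudocount of 0.1 and -0.0059 with array weights, Elovl1 without UVB at 0.012 with quantile normalization, and Elovl5 in the difference between responses at -0.0078 with array weights. Leaving out 1 rat at a time gave ranges of -0.036 to 0.51 (Elovl7, UVB in WT), -0.036 to 0.079 (Elovl4, UVB in P1.hMR) and -0.077 to 0.14 (Elovl2 averaged). For P1.hMR under UVB they were -0.014 to 0.22 (Elovl3) and -0.012 to 0.18 (Elovl5). Without UVB they were -0.083 to 0.037 (Elovl1), -0.21 to 0.087 (Elovl2), -0.17 to 0.0015 (Elovl3), -0.037 to 0.12 (Elovl5) and -0.13 to 0.051 (Elovl7), and for the difference between responses -0.12 to 0.013 (Elovl1) and -0.036 to 0.16 (Elovl5).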
